A study of Homo sapiens with 6 samples.

Results

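The RAS, RAF, MEK and ERK core cascade was followed through 7 genes, HRAS, NRAS, BRAF, MAP2K1, MAP2K2, MAPK3 and NF1, taken by symbol from a table of 20503 genes, and all 7 were found. The table compares 2 breast cancer cultures by poly(A) RNA sequencing, with 3 libraries each. One group is T47D, a line labelled ER-positive and grown in DMEM with serum. The second group, T47D-TR, is labelled a subline of T47D with resistance to tamoxifen. It was kept in the same medium with 1 µM 4-hydroxytamoxifen, the active metabolite of tamoxifen. The subline and the drug changed together, so their parts cannot be told apart, and the labels do not say whether the subline is a single clone or whether the 3 libraries of a group are separate cultures. The p-values therefore measure the spread between these libraries, which may be technical.

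The cascade carries growth signals from receptors at the cell surface to the nucleus. RAS proteins are small GTPases that are active when bound to GTP. Active RAS recruits RAF kinases to the membrane, RAF phosphorylates the MEK kinases, and MEK phosphorylates the ERK kinases, which act on transcription factors and other kinases. Neurofibromin, the product of NF1, switches RAS off by speeding its GTP hydrolysis. Signal flow through the cascade is set by phosphorylation and GTP loading, which RNA levels do not measure. In luminal breast cancer, signalling through this cascade is studied as a route around dependence on the oestrogen receptor.

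The libraries held 17199315 to 19867230 counts. Levels are given as CPM, the counts of a gene per 1000000 counts of the library after TMM scaling. The ER-positive label was not matched by its defining gene, the luminal factor gene ESR1, which encodes oestrogen receptor alpha. ESR1 had 0 to 3 counts in the libraries labelled T47D and 2 to 4 in those labelled T47D-TR. GATA3, another luminal factor gene, lay at 1.23 ± 0.140 and 0.625 ± 0.0774 CPM, while the epithelial keratin gene KRT8 lay at 1338 ± 26.0 and 1580 ± 120.3 CPM (mean ± SD, n = 3, T47D then T47D-TR). The 9 luminal and epithelial markers in the table summed to 2105 to 2187 CPM in T47D libraries and 2578 to 2971 CPM in T47D-TR libraries. Most of each sum came from KRT8 and a second keratin gene, KRT18, at 683 ± 18.7 and 928 ± 90.2 CPM. The cadherin gene CDH1 lay at only 2.12 ± 0.742 and 5.50 ± 2.40 CPM. Of the 8 luminal and epithelial markers tested, 6 were higher in T47D-TR, among them KRT19 (log2 2.01) and FOXA1 (log2 0.93), and 2 were lower, GATA3 and EPCAM (log2 -1.39). Marker counts stand beside 32.5% of all tested genes called higher and 30.5% called lower, by the test given below. The 12 mesenchymal and basal markers summed to 1953 to 1987 CPM in the T47D libraries against 2711 to 2942 CPM in those of T47D-TR. The highest of them were VIM, at 770 ± 10.9 and 1297 ± 22.4 CPM, and CD44, at 488 ± 6.27 and 721 ± 57.6 CPM. Among the 11 tested, 7 were higher, AXL was lower (log2 -0.74) and 3 were not called. The 7 fibroblast markers in the table summed to 36.6 to 40.0 and 20.4 to 26.8 CPM, and the 5 immune and endothelial markers to 22.7 to 26.3 and 79.9 to 102 CPM. Of the 3 fibroblast genes tested, LUM was lower, with 269, 232 and 286 counts against 6, 3 and 5, PDGFRB was lower (log2 -0.67), and COL1A1 was not called, at 18.2 ± 1.04 and 17.5 ± 1.07 CPM. DCN and COL1A2 were at 0 in every T47D library, and T47D-TR replicate 3 held 19 and 22 counts of them against 0 to 4 in the other T47D-TR libraries. The immune and endothelial sum was carried by PECAM1, at 13, 13 and 12 counts against 453, 610 and 459, and by CD68, at 23.7 ± 1.92 and 64.6 ± 9.17 CPM, both called higher, while PTPRC had at most 2 counts in a library. Whether these differences have a part in the results below was not tested, and neither was the identity of the cultures beyond their labels.

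Of the 7 cascade genes 4 fell in T47D-TR, HRAS, NRAS, MAP2K1 and MAP2K2, and 1 rose, MAPK3, while BRAF and NF1 were not called. Calls are from edgeR's quasi-likelihood test over 15961 genes, all 7 cascade genes among them, where the Benjamini-Hochberg adjusted p was below 0.05. These 5 of 7 calls stand beside 63% of all tested genes called, with 32.5% called higher and 30.5% called lower, so calls of this kind were common in the comparison. The CPM of the groups did not overlap for the same 5 of 7 genes, beside 68.3% of all tested genes. The median log2 fold change of the 7 genes was -0.21, against 0.00189 over all tested genes. The median size of their changes was 0.23 on the log2 scale, against 0.36 over all tested genes, which were not matched to the 7 genes in level. Without T47D-TR replicate 3 the count called higher was 3, with BRAF and NF1 added, beside 65.3% of genes called in that analysis. The share of all genes called was 56.2%, 55.5% and 55.8% without T47D replicates 1, 2 and 3, and 58.1% without T47D-TR replicate 1 or 2. It was 51.3% with no filter on low counts, 70.6% at a mean CPM of at least 5, 63.1%, 63.4% and 63.3% with DESeq2 size factors, library size or upper quartile scaling, 44.5% with DESeq2, 63.6% with limma's voom after quantile normalization, and 62.4% with a replicate block. In bulk RNA, less of a transcript in each cell and fewer cells that carry it cannot be told apart.

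**Figure D1:**
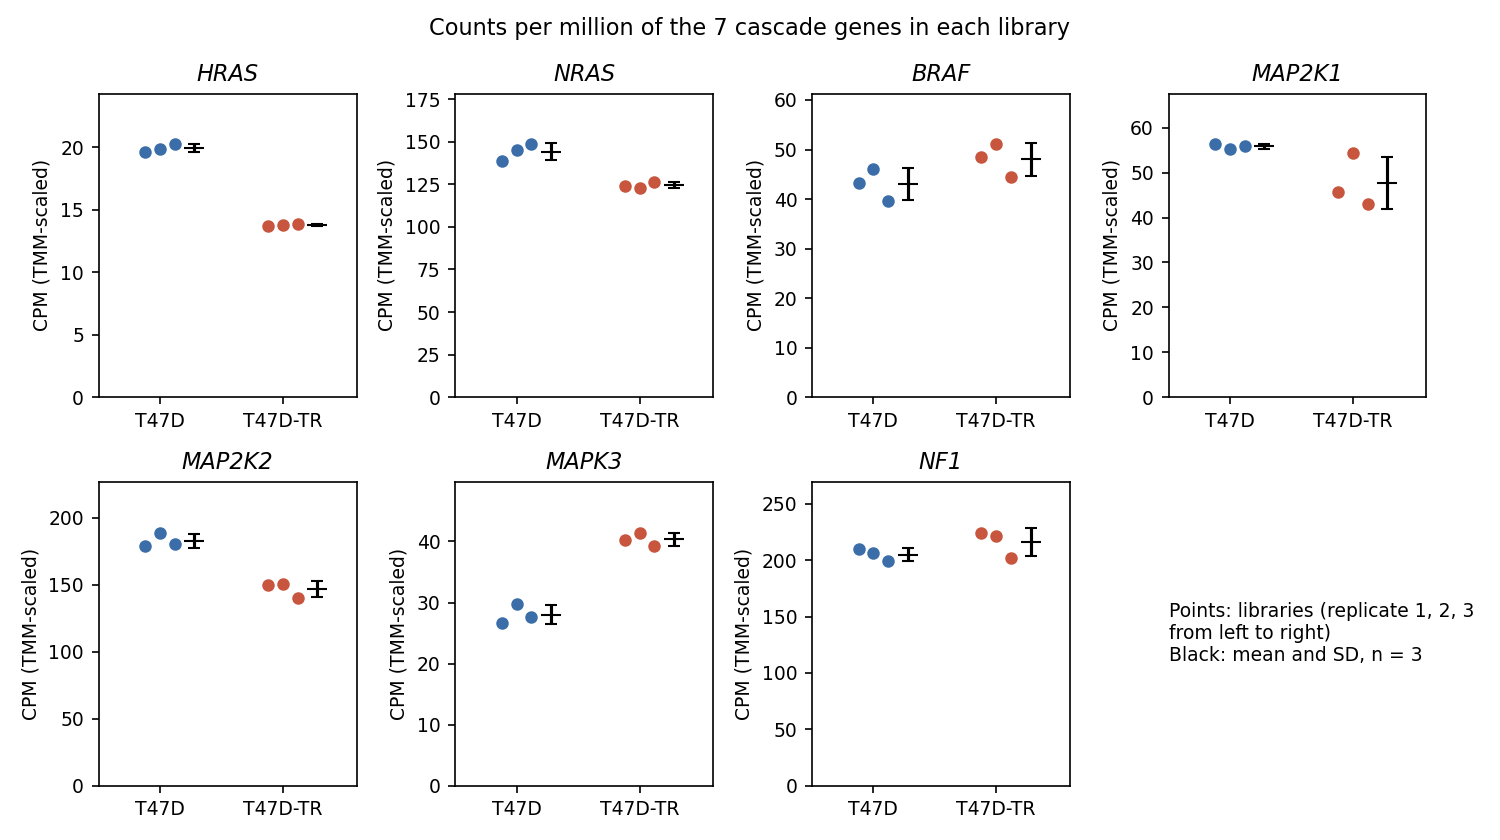
TMM-scaled CPM (vertical axis, from 0) of each cascade gene in the 3 T47D libraries (blue) and the 3 T47D-TR libraries (red), with the mean and SD in black. HRAS, NRAS, MAP2K1 and MAP2K2 lie lower in every T47D-TR library, MAPK3 lies higher, and the groups overlap for BRAF and NF1.

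HRAS, one of the RAS GTPase genes, and MAPK3 showed the largest changes of the 7, of about the same size: HRAS changed more in 10 of the 14 alternatives and MAPK3 in the other 4. HRAS lies on chromosome 11, 535576 down to 532242 on the minus strand (GRCh38). Its counts were 365, 388 and 378 in the T47D libraries and 264, 271 and 234 in the T47D-TR libraries, or 19.7, 19.8 and 20.3 CPM against 13.7, 13.8 and 13.9 CPM. The groups did not overlap, and the libraries of each group differed by less than 1 CPM. A spread over 3 libraries is itself uncertain, so the SE given below is the better guide to precision. The mean fell from 19.9 ± 0.308 to 13.8 ± 0.0894 CPM, a change of -30.8% (log2 fold change -0.53 ± 0.08, SE, edgeR's adjusted p = 5.29e-05). This change was larger in size than those of 66.1% of tested genes, taken at all levels. It stayed called under each of the 14 alternatives, at log2 fold changes of -0.65 to -0.52.

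NRAS, the other RAS gene followed, lies on chromosome 1, 114716771 down to 114704469 on the minus strand. It stood at 139, 145 and 149 CPM in T47D and at 124, 123 and 126 CPM in T47D-TR. Every T47D-TR library was under every T47D library, by a narrower margin than for HRAS. NRAS fell from 144 ± 4.92 to 124 ± 1.78 CPM (log2 change -0.21 ± 0.05, SE, edgeR's adjusted p = 0.00131), and this call was made under all 14 alternatives as well.

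The ratio of HRAS to NRAS counts within a library does not depend on how libraries are scaled. It was 0.142, 0.137 and 0.136 in the T47D libraries and 0.110, 0.112 and 0.110 in the T47D-TR libraries. All 3 T47D-TR ratios were under the T47D ratios, so HRAS lost more of its level than NRAS did. The log2 ratio differed by -0.32 between the group means (exact two-sided permutation test, p = 0.1, which is the smallest p that 3 against 3 libraries allow, and adjusted p = 0.133 over the 4 pairs of related genes tested, of which 2 are reported here). With this number of libraries the test cannot pass 0.05.

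BRAF, the RAF kinase gene followed, spans a long region, from 140924929 down to 140713328 on chromosome 7. It stood at 43.2, 46.1 and 39.7 CPM in T47D and at 48.6, 51.1 and 44.5 CPM in T47D-TR. Replicate 2 was highest and replicate 3 lowest in each group, and T47D-TR replicates 1 and 2 lay above all T47D libraries while replicate 3 lay within their range. The means were 43.0 ± 3.22 and 48.0 ± 3.34 CPM, a log2 fold change of 0.16 with a 95% interval of 0.0057 to 0.32 (edgeR's adjusted p = 0.0662). BRAF was called higher in 4 of the 14 alternatives, among them without T47D-TR replicate 3 (log2 0.21, edgeR's adjusted p = 0.00313) and without T47D replicate 2 (log2 0.21, adjusted p = 0.0477), and without T47D replicate 3 the value was 0.10 (adjusted p = 0.283). Over all 14 alternatives the adjusted p ranged from 0.00313 to 0.283, so these libraries do not settle whether BRAF differs.

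ARAF, another RAF kinase gene, named after its values were seen, stood at 50.05 ± 0.727 and 57.3 ± 3.91 CPM and was called higher (log2 fold change 0.19, edgeR's adjusted p = 0.0129, and up to 0.0498 over the alternatives).

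The MEK genes fell. MAP2K2, which encodes MEK2 (chromosome 19, 4124122 down to 4090321), stood at 179, 189 and 180 CPM in T47D and at 150.2, 150.4 and 140 CPM in T47D-TR. The groups were separate, and T47D-TR replicate 3 was the lowest library. MAP2K2 fell from 183 ± 5.46 to 147 ± 5.94 CPM, a change of -19.6% (log2 fold change -0.32 ± 0.05, SE, edgeR's adjusted p = 7.89e-05), with values of -0.35 to -0.28 and a call under each alternative.

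MAP2K1, which encodes MEK1 (chromosome 15, 66386912 to 66491544, plus strand), had a tight T47D group at 56.4, 55.4 and 55.9 CPM and a wide T47D-TR group at 45.7, 54.4 and 43.1 CPM. T47D-TR replicate 2 lay just under the lowest T47D library, and the other T47D-TR libraries lay well under it. Its coefficient of variation was 0.882% over the T47D libraries against 12.4% over those of T47D-TR, the widest of the 7 genes in that group. A wider T47D-TR group was not particular to MAP2K1. Over all tested genes edgeR's common coefficient of variation, apart from counting noise, was 0.027 in T47D and 0.080 in T47D-TR. The edgeR fit gives a gene the same dispersion in both groups, so its SE, intervals and adjusted p do not model this difference. MAP2K1 fell from 55.9 ± 0.493 to 47.7 ± 5.89 CPM (log2 change -0.23 ± 0.08, SE, edgeR's adjusted p = 0.0209). The call ended without T47D-TR replicate 1 (log2 -0.19, edgeR's adjusted p = 0.0808), without T47D replicate 1 (-0.22, adjusted p = 0.0637) or without T47D replicate 3 (-0.23, adjusted p = 0.0578). Without T47D-TR replicate 2 the value was -0.33 (adjusted p = 0.000569), and without replicate 3 it was -0.16 (adjusted p = 0.0231).

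The balance between the MEK genes did not separate the groups. The ratio of MAP2K1 to MAP2K2 counts was 0.315, 0.293 and 0.310 in the T47D libraries and 0.304, 0.361 and 0.308 in the T47D-TR libraries. The ranges overlapped, with T47D-TR replicate 2 highest, and the log2 ratios differed by 0.08 between group means (exact two-sided permutation test, p = 0.6, adjusted p = 0.6 over the 4 pairs).

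MAPK3, the ERK1 gene at the end of the cascade, rose while HRAS, NRAS and the MEK genes above it fell. It lies on chromosome 16, 30123220 down to 30114105. Its counts were 496, 582 and 515 in T47D and 777, 813 and 663 in T47D-TR, or 26.7, 29.8 and 27.6 CPM against 40.3, 41.5 and 39.3 CPM. The lowest T47D-TR library was well above the highest T47D library. The mean rose from 28.02 ± 1.57 to 40.3 ± 1.10 CPM, a fold of 1.44 (log2 fold change 0.53 ± 0.06, SE, edgeR's adjusted p = 1.54e-05). The alternatives gave 0.47 to 0.57, each with a call.

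NF1, the gene of the RAS inhibitor neurofibromin, spans 31094977 to 31377675 on chromosome 17. It stood at 210.2, 206 and 199 CPM in T47D and at 225, 222 and 202 CPM in T47D-TR. T47D-TR replicate 3 fell among the T47D libraries and the others lay above them. The means of 205 ± 5.65 and 216 ± 12.1 CPM gave a log2 fold change of 0.08, with a 95% interval of -0.03 to 0.18 (edgeR's adjusted p = 0.19). A change beyond 0.18 in size therefore lies outside the interval. NF1 was called higher without T47D-TR replicate 3 (log2 0.12, edgeR's adjusted p = 0.00571) and in the limma fit after voom with quantile scaling (0.13, limma's adjusted p = 0.038).

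**Figure D2:**
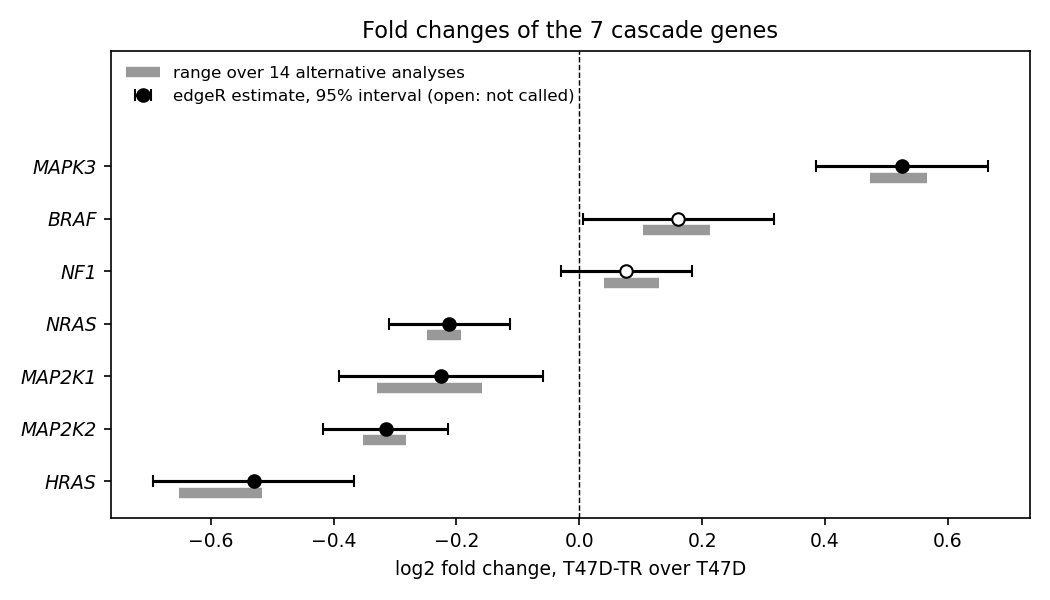
Log2 fold change (horizontal axis, T47D-TR over T47D) of each cascade gene, with edgeR's estimate and 95% interval (filled where called, open where not) and, as a grey bar, the range over the 14 alternative analyses. MAPK3 at 0.53 and HRAS at -0.53 lie at the ends, and the grey bar crosses 0 for none of the 7 genes.

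In the authors' deposited table the false discovery rate was under 0.05 for the same 5 genes, among 44.4% of its 20503 genes. The authors' deposited table gave BRAF a rate of 0.123 and NF1 one of 0.389.

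Levels of different genes were compared per kilobase of merged exon length from GENCODE 29, since longer transcripts give more fragments. The authors' annotation may differ from it. On this scale MAP2K2 was highest in T47D, at 34.9 ± 1.04 CPM per kb, followed by NRAS at 32.4 ± 1.11, MAP2K1 at 14.9 ± 0.131 and HRAS at 10.7 ± 0.166. MAPK3 at 7.64 ± 0.429 and NF1 at 7.56 ± 0.208 CPM per kb did not differ beyond their spread, and BRAF was lowest at 1.83 ± 0.137. In T47D-TR, MAP2K2 at 28.05 ± 1.14 and NRAS at 27.98 ± 0.401 CPM per kb did not differ beyond their spread. MAP2K1 at 12.7 ± 1.57 lay above MAPK3 at 10.99 ± 0.299 in every library. NF1 at 7.97 ± 0.445 and HRAS at 7.44 ± 0.0482 CPM per kb overlapped, and BRAF was lowest at 2.05 ± 0.143 CPM per kb.

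HRAS and MAPK3 thus changed places. HRAS was above MAPK3 per kilobase in each T47D library, at 10.6, 10.7 and 10.9 against 7.28, 8.11 and 7.52 CPM per kb. In the T47D-TR libraries it was under MAPK3, at 7.38, 7.45 and 7.47 against 10.98, 11.3 and 10.7 CPM per kb. The same exchange was seen with the length of the longest protein-coding transcript, a choice made after seeing the data. HRAS then stood at 16.2 ± 0.25 against 10.9 ± 0.613 CPM per kb for MAPK3 in T47D, and at 11.2 ± 0.0725 against 15.7 ± 0.428 in T47D-TR. This is a weak check, since MAPK3 is longer than HRAS by much the same factor under either length (3.67 against 1.85 kb merged, 2.57 against 1.23 kb longest). With the longest transcript NF1 at 16.5 ± 0.455, MAP2K1 at 16.4 ± 0.145 and HRAS at 16.2 ± 0.25 CPM per kb did not differ beyond their spread in T47D. MAP2K2, NRAS and BRAF kept their ranks. In T47D-TR, however, that length put MAP2K2 at 84.7 ± 3.43 CPM per kb, well above NRAS at 27.98 ± 0.401. It also put the mean of MAP2K1, 13.99 ± 1.73 CPM per kb, under that of MAPK3. How these pairs compare in T47D-TR therefore depends on the length taken.

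**Figure D3:**
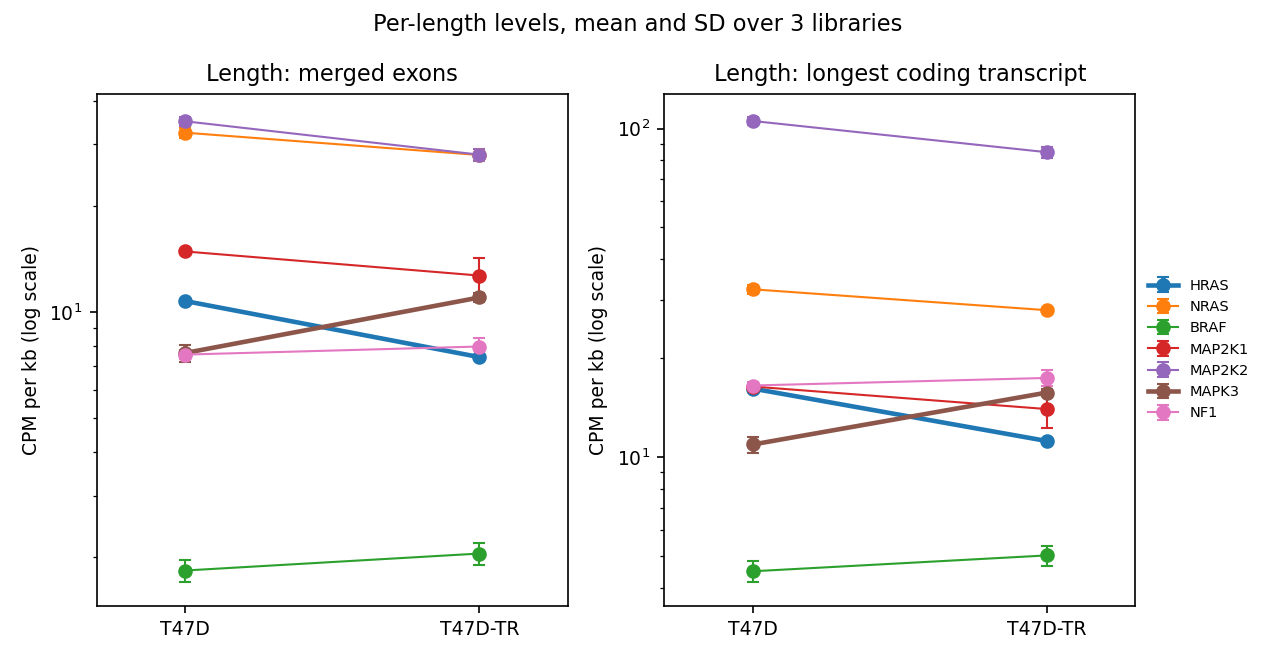
CPM per kilobase (log scale) of the 7 genes in T47D and T47D-TR, mean and SD over 3 libraries, with length taken as merged exons (left) or as the longest coding transcript (right). The lines of HRAS and MAPK3 (thick) cross in each panel, and BRAF is lowest in each.

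The promoters of HRAS and MAPK3 are shown because these genes moved farthest, in opposite directions. The windows are the 250 bases before the RefSeq start of each gene (GRCh38.p14), chr11:535577-535826 and chr16:30123221-30123470, both read on the minus strand. Capitals mark GGGCGG (the GC box), CCAAT and CACGTG (the E-box), on either strand:
HRAS: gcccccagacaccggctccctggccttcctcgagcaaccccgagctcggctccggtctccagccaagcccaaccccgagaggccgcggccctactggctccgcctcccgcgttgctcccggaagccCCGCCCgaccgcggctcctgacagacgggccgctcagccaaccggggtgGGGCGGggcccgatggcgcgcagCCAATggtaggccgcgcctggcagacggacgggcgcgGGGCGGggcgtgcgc
MAPK3: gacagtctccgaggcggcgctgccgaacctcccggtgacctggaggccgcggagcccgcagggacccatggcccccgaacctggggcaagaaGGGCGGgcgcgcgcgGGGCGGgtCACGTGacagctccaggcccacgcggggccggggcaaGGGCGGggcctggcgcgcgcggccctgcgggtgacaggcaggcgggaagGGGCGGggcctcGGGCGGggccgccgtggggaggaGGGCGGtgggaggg
HRAS held 3 GC boxes and 1 CCAAT, and MAPK3 held 6 GC boxes and 1 CACGTG. Of 35116 promoter windows of the same length, 42.6% held a GC box, 32.0% a CCAAT and 6.34% a CACGTG. GC content was 77.2% for HRAS and 80.4% for MAPK3, above that of 93.2% and 97.1% of all windows. The windows of the other genes that fell had GC boxes too, 2 for NRAS, 3 for MAP2K1 and 2 for MAP2K2, so this motif was found on both sides of the change. NRAS, like MAPK3, held 1 CACGTG, so that motif was also on both sides, and MAP2K1, like HRAS, held 1 CCAAT. CCGGAAGT (an ETS site, in 3.42% of windows), TGACGTCA (a CRE, 1.65%), TGANTCA (AP-1, 6.57%) and TATAAA (the TATA box, 10.7%) were found in none of these 5 windows. A match is a description of the letters and not a site of binding.

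The genes beside HRAS on its chromosome were called in both directions. Of the 10 tested genes on either side of HRAS, 7 were higher, 6 lower and 7 not called. Over all tested genes 32.5% were called higher and 30.5% lower, so calls around HRAS were about as common as elsewhere. The median of the 20 genes around HRAS was 0.02 on the log2 scale, and 2 of these 20 had a lower value than HRAS. The 20 genes around MAPK3 had a median of -0.03, and 18 of them had a lower value than MAPK3. Around MAP2K1 the median was -0.27, so MAP2K1 at -0.23 lay in the middle of its neighbours. Of these 20 genes 10 were called lower and 2 higher, beside 30.5% and 32.5% of all tested genes. Around MAP2K2 the median was -0.04, around NRAS -0.01, around BRAF -0.04 and around NF1 -0.13. The medians around HRAS and BRAF moved with the number of neighbours, to 0.33 and -0.29 with 5 genes on either side.

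**Figure D4:**
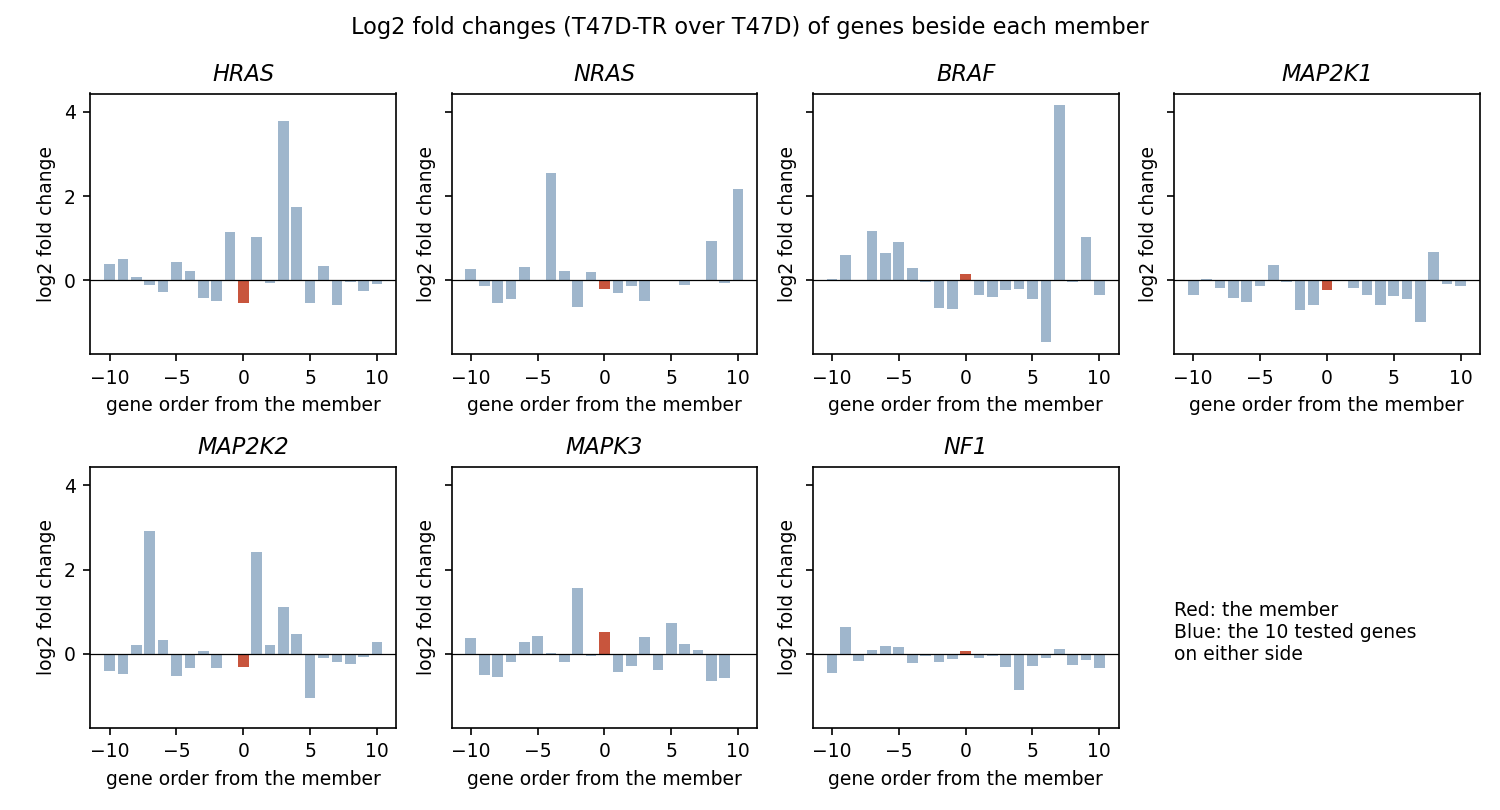
Log2 fold change (vertical axis, T47D-TR over T47D) of each cascade gene (red, position 0) and of the 10 tested genes on either side (blue) in chromosome order. HRAS is lower and MAPK3 higher than most of their neighbours, and MAP2K1 lies among neighbours with a median of -0.27.

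Some members overlap other annotated genes. Since the strand setting of the counting is not given, reads of an overlapping pair on opposite strands cannot be told apart. For a pair on the same strand, no strand setting would separate them. NDUFB2, a respiratory complex I subunit gene on the other strand at the end of BRAF, fell from 37.5 ± 1.35 to 23.3 ± 0.992 CPM (log2 change -0.68, edgeR's adjusted p = 1.75e-06), the opposite direction to that of BRAF's value. SNAPC5, a subunit gene of a small nuclear RNA transcription complex at the end of MAP2K1, stood at 17.43 ± 1.253 and 17.3 ± 1.03 CPM and was not called. Inside NF1, on the other strand, lie EVI2B, at 7.27 ± 1.07 and 6.71 ± 1.39 CPM, and OMG and EVI2A, with at most 11 counts in a library. The pseudogene AK4P1, on the same strand as NF1, stood at 4.13 ± 1.15 and 4.00 ± 0.123 CPM. All are low beside NF1. GENCODE names 12 NF1 pseudogenes, 1 of BRAF and 1 of MAP2K1, which are not analysed here, and reads that match both a gene and its copy are uncertain.

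Across the 6 libraries, the 3 tested genes whose log2 CPM was most like that of HRAS were GUF1, a mitochondrial translation factor gene (r = 0.9997), the pseudogene ACTR3P1 (r = 0.9997) and HNRNPH1, a splicing factor gene (r = 0.9996). GUF1 stood at 72.7 ± 1.45 and 52.0 ± 0.33 CPM, HNRNPH1 at 729 ± 20.9 and 411 ± 0.657 CPM, and ACTR3P1 at 2.02 ± 0.291 CPM in the T47D libraries with 0 counts in those of T47D-TR. The likeness is mostly the step between the groups: 477 other tested genes had an r over 0.99 with HRAS.

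The genes around the cascade were described by 9 lists. Of 135 tested genes in them, 54 were higher and 34 lower, so 65.2% were called, beside 63% of all tested genes (32.5% higher, 30.5% lower). By list the share called ran from 50%, for RAS GTPase-activating proteins and NF1 partners, to 100%, for genes that ERK signalling induces. Among the RAS relatives and remaining core kinases 6 of 12 rose and 4 fell (median 0.06). RRAS, a RAS-related GTPase gene, rose from 5.25 ± 0.0987 to 15.2 ± 0.385 CPM (log2 change 1.53, edgeR's adjusted p = 4.88e-08). MRAS, whose product forms a RAF-activating phosphatase complex with SHOC2, fell from 10.5 ± 0.566 to 5.47 ± 1.18 CPM (log2 change -0.95, edgeR's adjusted p = 7.7e-05).

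In the list of RAS exchange factors 3 of 9 tested genes rose and 2 fell. This list is not confined to genes upstream of RAS, since it holds the RAS effector gene RGL1. SOS2 rose from 19.2 ± 0.702 to 26.4 ± 1.95 CPM (log2 change 0.46), and SOS1, its better expressed relative, named after its values were seen, from 84.2 ± 3.84 to 114.7 ± 13.2 CPM (log2 change 0.45, edgeR's adjusted p = 0.000173). Both encode the factors that load RAS with GTP behind growth factor receptors. The others called were RGL2, higher at 0.44, RASGRF2, lower at -0.61, and RGL1, an effector of RAS that activates RAL, lower from 1.32 ± 0.523 to 0.318 ± 0.214 CPM. Of 14 tested adaptor genes 7 rose and 4 fell (median 0.24), with the insulin receptor substrate gene IRS1 highest at 1.33 and the ubiquitin ligase gene CBLB lowest at -0.85.

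NF1 acts with SPRED proteins, which bring neurofibromin to the membrane, and all 3 SPRED genes rose. SPRED3 went from 1.49 ± 0.361 to 5.87 ± 0.929 CPM (log2 change 1.97, edgeR's adjusted p = 3.73e-06). SPRED2 and SPRED1, named after their values were seen, rose from 28.9 ± 1.2495 to 69.5 ± 5.6 CPM (log2 change 1.27) and from 16.6 ± 0.946 to 26.6 ± 3.02 CPM (log2 change 0.68). In the whole list of RAS GTPase-activating proteins and NF1 partners 5 of 12 rose, 1 fell and 6 were not called (median 0.05). The one that fell was LZTR1, which encodes an adaptor for RAS ubiquitination, from 46.9 ± 1.74 to 33.8 ± 2.07 CPM (log2 change -0.47, edgeR's adjusted p = 3.64e-05). RASA4, a GTPase-activating protein gene named after its values were seen, stood at 0.538, 0.460 and 0.429 CPM in T47D and at 1.04, 0.816 and 2.25 CPM in T47D-TR. It was called higher at a log2 fold change of 1.48 (edgeR's adjusted p = 0.00814). Its highest library was T47D-TR replicate 3, without which the value was 0.95 (adjusted p = 0.0394).

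Among scaffolds and RAF regulators 5 of 26 rose and 11 fell (median -0.08). KSR1, whose product holds RAF, MEK and ERK together, moved farthest of the list. It stood at 15.9, 16.3 and 14.1 CPM in T47D and at 72.4, 75.9 and 73.4 CPM in T47D-TR, 4.78-fold higher (log2 2.26 ± 0.07, SE, edgeR's adjusted p = 6.55e-11). Its relative KSR2 fell from 2.25 ± 0.637 to 0.93 ± 0.126 CPM (log2 change -1.26, edgeR's adjusted p = 0.00149). PEBP1, the gene of a RAF inhibitor protein, named after its values were seen, fell from 227 ± 6.45 to 170.02 ± 8.58 CPM (log2 change -0.42).

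Of 15 genes of RAS lipid processing and traffic 4 rose and 4 fell. FNTB, the beta subunit gene of the farnesyltransferase that attaches the RAS lipid anchor, fell from 11.9 ± 1.11 to 7.04 ± 0.891 CPM (log2 change -0.76), while its alpha subunit gene FNTA, named after its values were seen, rose from 34.6 to 49.5 CPM (log2 change 0.52, edgeR's adjusted p = 5.87e-06). ABHD17C, a depalmitoylase gene, rose from 12.1 ± 0.467 to 20.4 ± 3.9 CPM (log2 change 0.76).

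Downstream of ERK, 5 of 15 genes of activated kinases and direct nuclear targets rose and 3 fell (median 0.07). MKNK2, a kinase gene of translation control, rose from 64.4 ± 1.61 to 114 ± 11.9 CPM (log2 change 0.82), and ERF, the gene of a transcriptional repressor that ERK inactivates, fell from 75.4 ± 2.15 to 59.0 ± 1.92 CPM (log2 change -0.35). In the other MAP kinase branches 10 of 22 rose and 4 fell, with MAP3K5 highest at 1.31 and MAP2K3 lowest at -0.44. In the list of genes that ERK signalling induces, 9 of 10 rose and 1 fell, beside 32.5% of all tested genes called higher and 30.5% lower. Its median was 1.58, against -0.21 for the 7 cascade genes and 0.00189 over all tested genes. The gene that fell was CCND1, which encodes cyclin D1 (log2 -0.61). DUSP6, the gene of an ERK phosphatase, was highest at 4.76. This list was fixed with earlier results of these libraries known, so its direction is not independent evidence.

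**Figure D5:**
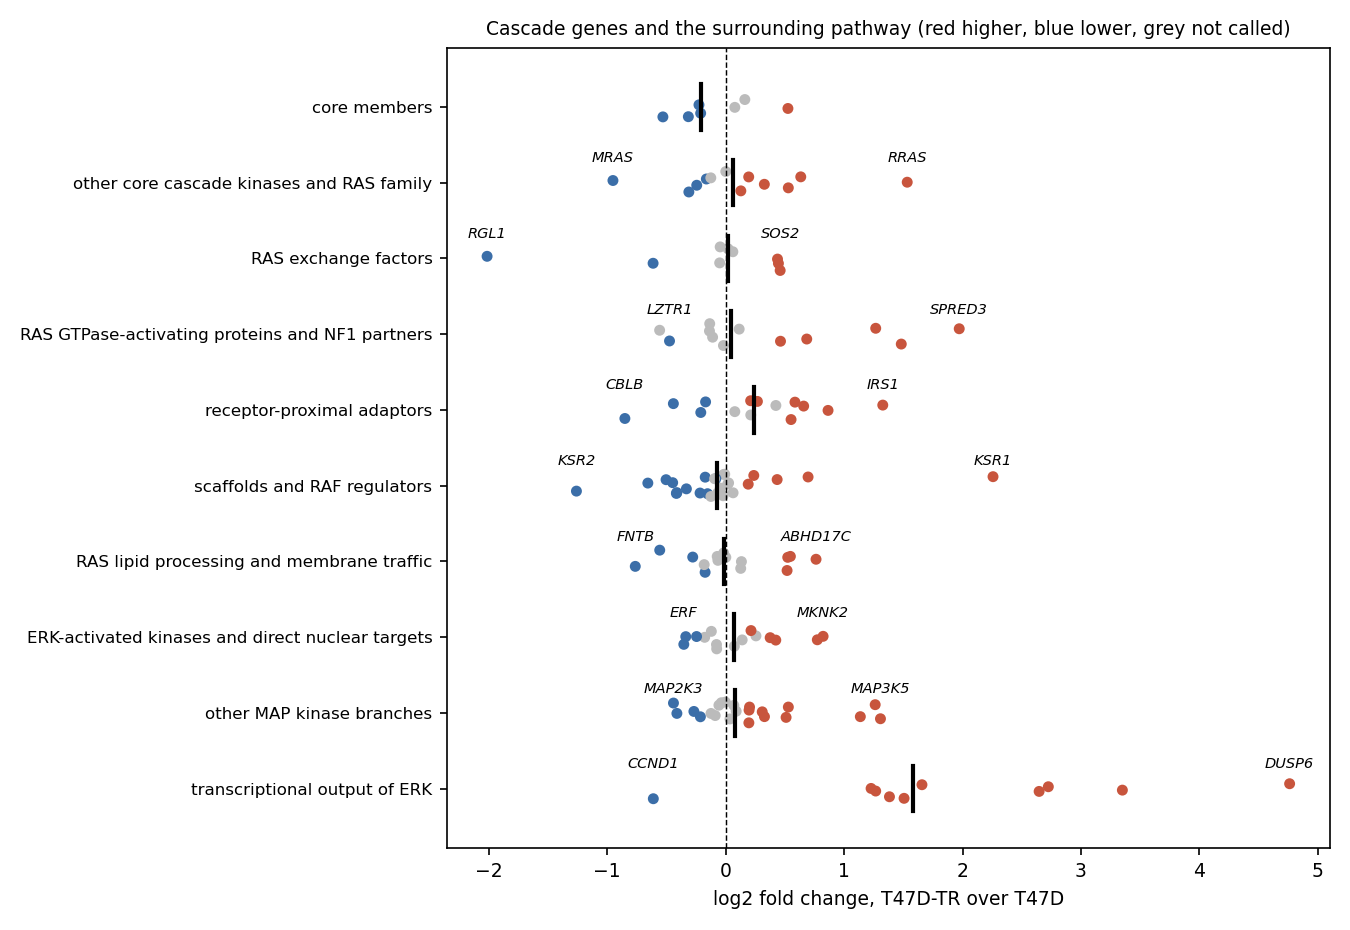
Log2 fold change (horizontal axis, T47D-TR over T47D) of the tested genes of the cascade and of 9 surrounding lists (rows), with red for higher, blue for lower and grey for not called, and a black bar at each median. The cascade genes span -0.53 to 0.53, KSR1 stands at 2.26, and the ERK-induced list has its median at 1.58.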

How the data were processed

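Poly(A) RNA of 3 T47D and 3 T47D-TR libraries was sequenced after a directional NEBNext preparation, per the labels' protocols. The submitters' processing notes name HISAT2 2.1.0, DESeq and GRCh38. The sources used here do not give the counting tool, its strand setting or the annotation. The deposited columns per library hold whole-number read counts, although the table is named for FPKM. The authors' group means, a normalized signal, their linear fold change ratio, its log2 value and their p-value and false discovery rate are deposited beside them.

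Counts were scaled with TMM and filtered with filterByExpr (minimum count 10, minimum total 15). edgeR 4.0.16 (glmQLFit, glmQLFTest) compared all 6 libraries without covariates, with Benjamini-Hochberg adjustment over all tested genes and a threshold of 0.05. SE and 95% intervals come from the log2 fold change and edgeR's F statistic. Levels are CPM, mean ± SD over 3 libraries. Log2 CPM for correlations used a prior count of 2. Positions and promoters are from RefSeq (GRCh38.p14): 16726 genes of the table were placed by identifier and 1967 by symbol. The match by symbol was added after medians of neighbouring genes had been seen, and moved those of NRAS and NF1 by under 0.05. Lengths and overlaps are from GENCODE 29. Motifs were searched in the 250 bases before each start. The procedure was also run on simulated data with the same dispersion in both groups and few changed genes. These libraries differ from that setting, so the run does not show how well the procedure works on them. Alternatives were DESeq2 1.42.0, limma 3.58.1 voom with quantile normalization, other scalings and filters, a replicate block and leaving out each library.

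The members, lists and tests were chosen with earlier results of these data known. Named genes were the 7 members, the called gene at each end of each list, genes overlapping a member and the 3 most like HRAS. The definition of the SE, the motifs, the 2 promoters printed and the genes marked as such in the text were chosen after values were seen. Exact permutation tests compared 4 count ratios, with p adjusted over the 4. Of these, 2 are given, and some results are not reported here.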

Additional observations from a re-analysis of the deposited data

How the results depend on the processing

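None of the 7 cascade genes changed direction in the 14 alternatives, and HRAS, NRAS, MAP2K2 and MAPK3 were called in all of them. BRAF (0.16, not called) was called at a mean CPM of at least 5 (0.17, edgeR adjusted p = 0.048), and NF1 with voom and quantile normalization (0.13), which moved the log2 fold changes of all tested genes by a median of -0.11. The count of cascade genes called higher was 2 at a mean CPM of at least 5 and 2 with voom. Leaving out each library gave 0.10 to 0.21 for BRAF, -0.33 to -0.16 for MAP2K1, 0.0485 to 0.12 for NF1 and 1 to 3 cascade genes called higher; apart from the fewer samples, the cause was not tested. The 2 count ratios reported kept their direction without any 1 library, from 0.00115 to 0.13 for MAP2K1 over MAP2K2. Whether the replicate numbers pair the libraries was not settled. Over all tested genes, same-numbered libraries had deviations from their group means correlated at -0.0208 to -0.00512, which does not exclude pairing for single genes. For BRAF, replicates 1, 2 and 3 deviated by 0.0109, 0.103 and -0.114 in T47D and by 0.0181, 0.0908 and -0.109 in T47D-TR (log2 CPM). MAP2K1 did not share an order, with replicate 2 at -0.0128 in T47D and 0.195 in T47D-TR. With a replicate block BRAF was called (0.16, edgeR adjusted p = 0.0335), so 2 cascade genes were higher, and the calls over all genes went from 10053 to 9954. Medians of neighbouring genes moved with their number: with 5 on either side to 0.33 around HRAS and -0.29 around BRAF, and with 20 to -0.0738 around HRAS, -0.12 around BRAF, -0.18 around MAP2K1 and -0.12 around MAPK3.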
